A study of Homo sapiens with 4 samples.

Results

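The proteins other than HIF that have been proposed as substrates of VHL were examined here at the level of their mRNA. The genes were followed by their symbol in a table of 12912 genes. The 7 genes were ZHX2, SFMBT1, TBK1, MYBL2 and AURKA, together with ZHX1 and ZHX3, which are family members of ZHX2 kept for reference. Each symbol matched a single row. The cells were 786-O, a human clear cell renal carcinoma line without functional VHL. 786-O-Ctrl kept the VHL-null genotype, and 786-O-VHL carried a retroviral vector for HA-tagged wild-type VHL. The sample labels name the triple-reporter versions, so both groups also carry a retroviral fusion of GFP, luciferase and thymidine kinase. Each group was 1 subline with 2 RNA libraries, and nothing in the sources says whether the duplicates came from separate cultures. The p-values therefore measure the spread between these libraries, which may be technical. Other differences between the sublines cannot be told apart from the effect of VHL.

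Most clear cell renal carcinomas have lost VHL, a tumor suppressor best known for keeping the HIFα transcription factors low in normoxia by way of ubiquitin. HIF2α builds up in such tumors. ZHX2, SFMBT1, TBK1, AURKA and MYBL2 have been proposed as further proteins that VHL binds or holds in check. Such regulation acts on the protein, so an mRNA measurement shows the transcript supply and not the protein. Protein levels were not analysed here.

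The counts summed to between 2807779 and 22141263 per library, and 786-O-VHL replicate 1 was the shallow one. Both 786-O-Ctrl columns are headed with replicate number 1, so these libraries are called the deeper and the shallower control. Levels are CPM, the standard count measure relative to library size, here with TMM scaling, and every fold change sets the VHL-restored cells over the controls. The quasi-likelihood test of edgeR compared the groups over 12335 genes with Benjamini-Hochberg adjustment (FDR). With 2 libraries against 2, the smallest p of a two-sided exact permutation test is 0.333, so the FDR rests on a spread shared between genes. Scaling by library totals alone moved the log2 fold changes by a median of 0.13, and the share of lower genes among all calls was then 37.9% in place of 49.5%. The restored gene was checked first. VHL mRNA was at 42.9 and 43.9 CPM in 786-O-Ctrl and at 178 and 163 CPM in 786-O-VHL, and endogenous and vector transcripts cannot be told apart. The renal lineage factors PAX8 and PAX2 were detected in all 4 libraries, at between 27.6 and 277 CPM. Of the markers of other cell types, COL1A1 was at 5.72 to 7.12 CPM and PECAM1 at 0.27 to 0.43 CPM.

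The 7 genes went in different directions. MYBL2, AURKA and ZHX3 were lower in 786-O-VHL, ZHX2 and ZHX1 were higher, and SFMBT1 and TBK1 did not pass the test. At an FDR under 0.05, 3 of the 7 were lower, against 31.9% of all tested genes, and 2 were higher, against 32.6%. These shares are near those of all genes, so the number of calls says nothing particular of the 7. MYBL2 and AURKA passed the FDR with a fall of over 2-fold, which 7.52% of all tested genes did. The libraries of the groups did not overlap for any of the 7 genes except TBK1, while 80% of all tested genes did not overlap. Both 786-O-VHL libraries lay below both controls for 4 of the 7, against 39.2% of all tested genes, and above them for 2, against 40.8%.

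**Figure D1:**
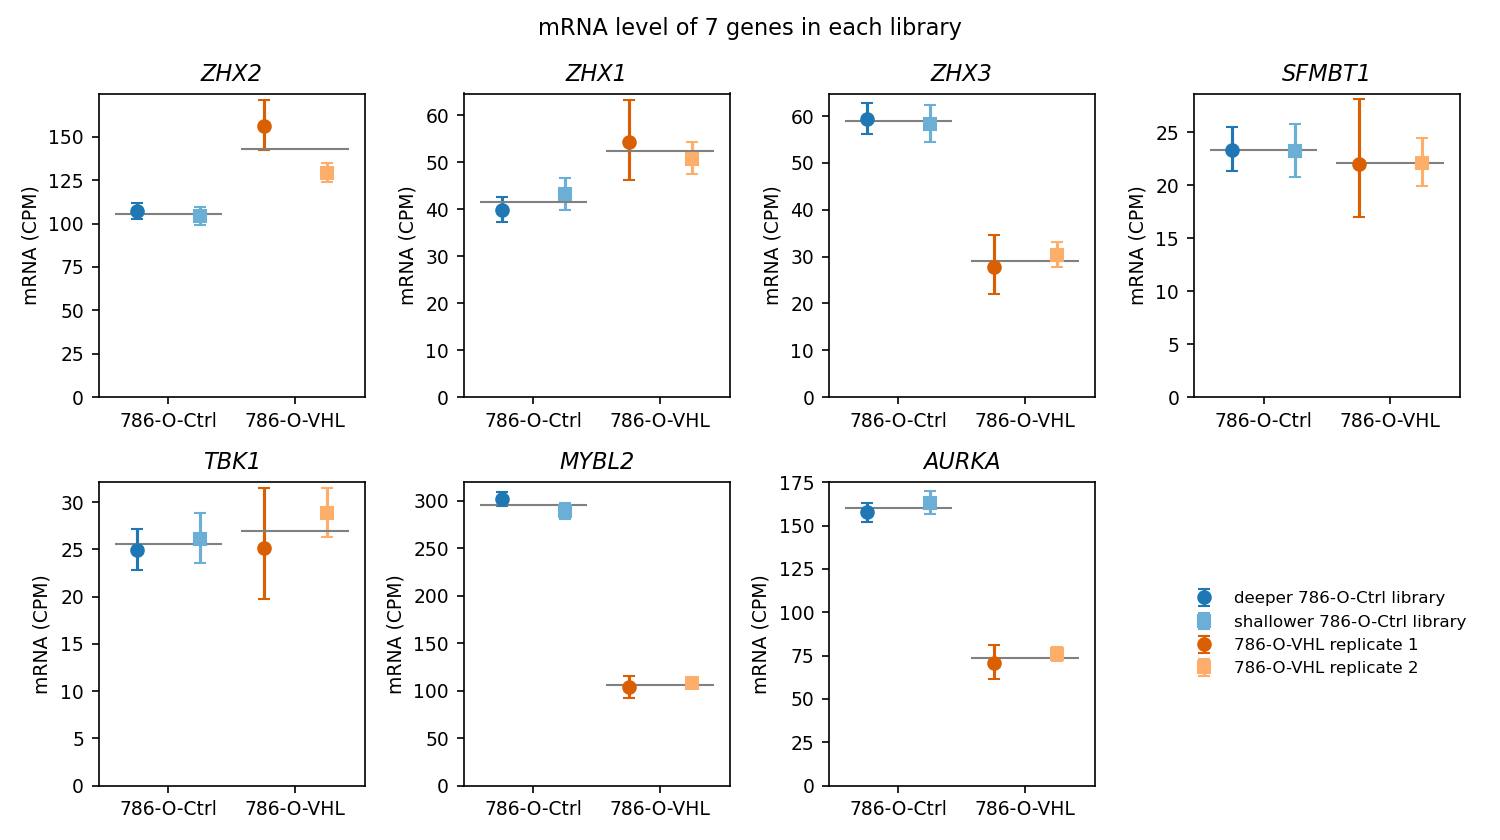
mRNA level of the 7 genes in each of the 4 libraries, in CPM on a linear axis from 0. Points are libraries, bars are 95% exact Poisson intervals that cover counting error only, and grey lines are group means. MYBL2, AURKA and ZHX3 lie lower in both 786-O-VHL libraries, and TBK1 overlaps between the groups.

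ZHX2 (ENSG00000178764.8) is a zinc finger and homeobox transcription factor that associates with NF-Y and has been linked to NF-κB activity in renal carcinoma. It lies on the plus strand of chromosome 8 of GRCh37 from 123793894 to 123986750. The deeper and the shallower control held ZHX2 mRNA at 107 and 104 CPM, and it stood at 156 and 129 CPM in 786-O-VHL replicates 1 and 2. Both 786-O-VHL libraries were higher, and they differed from each other by more than the 786-O-Ctrl libraries did. The means were 106 ± 2.15 and 143 ± 19.3 CPM (SD, n = 2 per group). The fold change was 1.30 (log2 0.38, standard error 0.0733, edgeR FDR = 4.62e-05). The log2 value was 0.56 without 786-O-VHL replicate 2, and 0.29 without replicate 1.

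ZHX1 (ENSG00000165156.15), the neighbor and relative of ZHX2, lies on the minus strand of chromosome 8 from 124260691 to 124287781. The start sites of these genes are 493.9 kb apart. ZHX1 mRNA was at 39.9 and 43.2 CPM in 786-O-Ctrl and at 54.3 and 50.8 CPM in 786-O-VHL, and both 786-O-VHL libraries were above both controls. The means were 41.6 ± 2.31 and 52.5 ± 2.48 CPM (SD). The fold change was 1.25 (log2 0.32, standard error 0.0865, edgeR FDR = 0.00215). The call rested on the deeper control, without which the log2 fold change was 0.26 with an edgeR FDR of 0.0908, and DESeq2 gave an FDR of 0.0611. A read-through transcript annotated as ZHX1-C8orf76 shares exons and strand with ZHX1, so reads from it could have been counted there.

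ZHX3 (ENSG00000174306.21), on the minus strand of chromosome 20 from 39807088 to 39946371, went the opposite way. It was at 59.4 and 58.4 CPM in 786-O-Ctrl and at 27.8 and 30.4 CPM in 786-O-VHL. The groups were far apart relative to the replicates. Their means were 58.9 ± 0.746 and 29.1 ± 1.83 CPM (SD). ZHX3 was 1.97-fold lower (log2 -0.98, standard error 0.0890, edgeR FDR = 1.38e-10), and its log2 fold change stayed between -1.09 and -0.85 over all 12 alternatives. PLCG1, a phospholipase gene on the opposite strand, shares exonic bases with ZHX3. PLCG1 had a mean of 143 CPM in 786-O-Ctrl and 128 CPM in 786-O-VHL, which gave a log2 fold change of -0.15 (edgeR FDR = 0.0494), and strand use in the counting is not stated.

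Per kilobase of annotated exon, ZHX2 was the most abundant ZHX transcript in every library. It was at 24.1 and 23.4 RPKM (CPM per kilobase) in 786-O-Ctrl and at 35.1 and 29.0 RPKM in 786-O-VHL. ZHX1 was at 5.93 and 6.42 RPKM and then at 8.06 and 7.54 RPKM. ZHX3 was at 5.09 and 5.0 RPKM and then at 2.38 and 2.60 RPKM. Of the summed level of the family, ZHX3 made up 14.5% and 14.4% in the 786-O-Ctrl libraries and 5.23% and 6.65% in the 786-O-VHL libraries. The share of ZHX2 was 68.6% and 67.2% before restoration and 77.1% and 74.1% after it, while that of ZHX1 lay between 16.9% and 19.3% in all 4 libraries. These levels depend on the annotated exon length, which is 11.68 kb for ZHX3 and 4.453 kb for ZHX2.

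**Figure D2:**
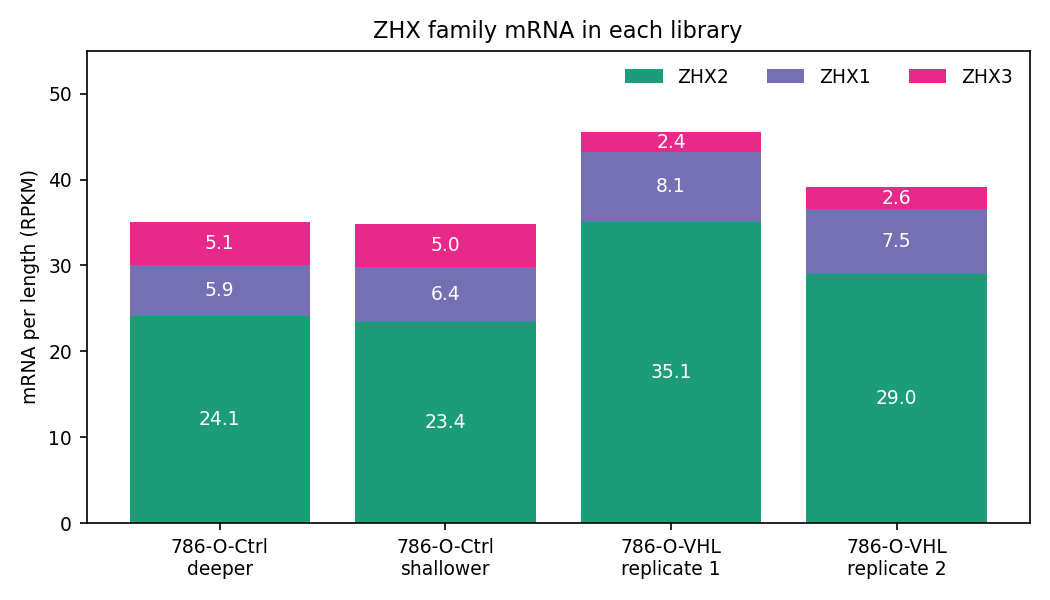
Stacked bars of ZHX2, ZHX1 and ZHX3 mRNA per kilobase of annotated exon (RPKM, linear axis from 0) in each library. ZHX2 takes the largest part in all 4 libraries, and the ZHX3 part is smaller in both 786-O-VHL libraries.

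The other zinc finger homeobox genes put these changes beside their relatives. Of 13 tested genes of this class, the 3 ZHX genes included, 8 were higher and 3 were lower at an FDR under 0.05, beside 32.6% higher and 31.9% lower among all tested genes. The median log2 fold change of the class was 0.32, against 0.02 over all tested genes. The higher count was 4 under DESeq2 and 5 without either the deeper control or 786-O-VHL replicate 2. The lower count was 1 without either control and 2 without 786-O-VHL replicate 2. ZEB1, a repressor of epithelial genes, had a log2 fold change of 0.35 and ZFHX3 of 0.35, while ZEB2 was at 0.06 (edgeR FDR = 0.528). The largest rise was that of ZFHX2, from 0.38 and 0.47 CPM to 1.70 and 2.43 CPM, which are low levels. Among the partners of ZHX proteins, the NF-Y subunits NFYA and NFYB rose (log2 0.31 and 0.46) and NFYC had a value of -0.02 (edgeR FDR = 0.875). The NF-κB subunits RELA and NFKB1 fell (log2 -0.30 and -0.51). DNMT3B, a DNA methyltransferase that binds ZHX1, was at 37.7 and 35.3 CPM in 786-O-Ctrl and at 83.5 and 78.9 CPM in 786-O-VHL, which gave a log2 fold change of 1.13 (edgeR FDR = 5.99e-13).

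SFMBT1 (ENSG00000163935.14) is a chromatin reader with MBT domains that associates with the LSD1-CoREST histone demethylase complex. It lies on the minus strand of chromosome 3 from 52937588 to 53080766, the same chromosome as VHL. SFMBT1 mRNA was at 23.4 and 23.2 CPM in 786-O-Ctrl and at 22.1 and 22.1 CPM in 786-O-VHL. The 4 libraries were close to each other, with both 786-O-VHL libraries slightly below the controls. The means were 23.3 ± 0.120 and 22.1 ± 0.0291 CPM (SD). The log2 fold change was -0.08 (standard error 0.116, edgeR FDR = 0.581), with a 95% interval from -0.32 to 0.16. In 786-O-VHL replicate 1 the value rests on 65 counts, whose 95% exact Poisson interval runs from 17.0 to 28.1 CPM. An annotated gene on the opposite strand shares exonic bases with SFMBT1. A second such gene, AC096887.1 on the same strand, was in the table and had between 1 and 8 counts per library.

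The genes around SFMBT1 moved more than SFMBT1 itself. Of 9 tested MBT domain genes, SFMBT1 included, 4 were higher and 1 was lower, beside 32.6% higher and 31.9% lower among all tested genes. The median log2 fold change of the 9 was 0.25. The lower count was 0 without the shallower control or without 786-O-VHL replicate 2. MBTD1 and SCMH1 rose (log2 1.02 and 0.75), and L3MBTL2 fell (log2 -0.47). Of 7 LSD1-CoREST genes, 4 were lower and 2 were higher, shares to be read against the same 31.9% and 32.6%, with a median of -0.20. The lower count was 2 without the deeper control and 2 with scaling by library totals. KDM1A, which encodes the demethylase LSD1, fell from 146 and 140 CPM to 98.4 and 86.0 CPM, a log2 fold change of -0.68 (edgeR FDR = 2.28e-09). The deacetylase gene HDAC1 had a log2 fold change of -0.78, and PHF21A, a reader of unmethylated histone H3 in the same complex, had one of 0.75. SPHK1 encodes a sphingosine kinase and has been described as a transcriptional target of SFMBT1. It was at 166 and 152 CPM in 786-O-Ctrl and at 56.0 and 77.6 CPM in 786-O-VHL, with log2 -1.15 (SE 0.0848, edgeR FDR = 1.83e-12).

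TBK1 (ENSG00000183735.10) is a serine/threonine kinase of innate immune signaling that phosphorylates IRF3 and autophagy receptors. It lies on the plus strand of chromosome 12 from 64845870 to 64895894. TBK1 mRNA was at 24.9 and 26.1 CPM in 786-O-Ctrl and at 25.1 and 28.9 CPM in 786-O-VHL. The groups overlapped, since 786-O-VHL replicate 1 lay between the controls. The means were 25.5 ± 0.840 and 27.0 ± 2.66 CPM (SD). The log2 fold change was 0.13 (standard error 0.111, edgeR FDR = 0.296), with a 95% interval from -0.09 to 0.36. Without 786-O-VHL replicate 2 its value was -0.03, and with scaling by library totals it was 0.27 with an edgeR FDR of 0.0366. Annotated long noncoding RNAs share exonic bases with TBK1 on either strand.

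Of 12 genes that act with TBK1, 5 were higher and 5 were lower, beside 32.6% higher and 31.9% lower among all tested genes. Their median log2 fold change was 0.04, and DESeq2 called 3 of them higher. The lower count was 3 without the shallower control and 3 with scaling by library totals. The autophagy receptors OPTN, SQSTM1 and CALCOCO2 rose, with log2 fold changes of 0.45, 0.53 and 0.30. The adaptor TBKBP1 rose from 15.7 and 16.8 CPM to 33.6 and 36.2 CPM, a log2 fold change of 1.13 (edgeR FDR = 9.76e-10), and the adaptor AZI2 rose by a log2 fold change of 0.43. TANK, another adaptor, was at -0.01 (edgeR FDR = 0.922). IKBKE, the closest homolog of TBK1, was at 23.9 and 26.5 CPM in 786-O-Ctrl and at 14.2 and 15.6 CPM in 786-O-VHL, which gave a log2 fold change of -0.72 (edgeR FDR = 1.69e-05). The pathway genes TICAM1, TRAF3 and MAVS and the transcription factor IRF3 fell, by values between -0.53 and -0.20. STING1, a further pathway gene, did not pass the test at 0.09 (edgeR FDR = 0.436). The tested genes that IRF3 can induce went up. IFIT1, IFIT2, IFIT3 and ISG15, the 4 tested of 7 listed, were higher with log2 fold changes of 0.64, 1.93, 0.80 and 1.02. Among all tested genes 32.6% were higher. The rest of that list, IFNB1, CXCL10 and CCL5, were not among the genes counted. The study reported the interferon α response as enriched in 786-O-VHL on these same libraries, so this rise is not independent evidence. IRF3 activity was not tested.

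MYBL2 (ENSG00000101057.16), also called B-MYB, is a transcription factor that joins the MuvB complex to turn on late cell cycle genes, and it is itself an E2F target. It lies on the plus strand of chromosome 20 from 42295659 to 42345135, with no annotated gene overlapping it. MYBL2 mRNA was at 301 and 289 CPM in 786-O-Ctrl and at 103 and 108 CPM in 786-O-VHL. The distance between the groups was many times that between the replicates. The means were 295 ± 8.64 and 106 ± 3.22 CPM (SD). MYBL2 was 2.77-fold lower (log2 -1.47, standard error 0.0675, edgeR FDR = 5.39e-17), the largest change among the 7 genes. Its log2 fold change lay at percentile 3.54 of all tested genes, counted from the strongest fall, and stayed between -1.52 and -1.34 over the alternatives. MYBL2 is among the E2F target genes that the study selected on these same libraries, so its direction there is not independent evidence.

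Sequences upstream of the start site were taken from RefSeq (GRCh38.p14) for MYBL2 and ZHX3, which fell, and TBK1, which did not pass the test. The promoter set used held no 300-base sequence for ZHX2, ZHX1, SFMBT1 or AURKA, so these genes were not scanned. The windows are 250 bases long and end at the base before the start, on chr20:43666864-43667113 (plus strand), chr20:41317732-41317981 (minus strand) and chr12:64451870-64452119 (plus strand). Capitals mark TTGGCGG, the letters of the known E2F site of the MYBL2 promoter, and ACGTG or GCGTG, the core of hypoxia response elements, on either strand.
MYBL2: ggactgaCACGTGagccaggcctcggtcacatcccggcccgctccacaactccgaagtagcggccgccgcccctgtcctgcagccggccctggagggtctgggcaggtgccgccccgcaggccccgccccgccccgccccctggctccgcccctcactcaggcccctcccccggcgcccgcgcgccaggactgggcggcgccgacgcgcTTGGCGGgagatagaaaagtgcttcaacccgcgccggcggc
ZHX3: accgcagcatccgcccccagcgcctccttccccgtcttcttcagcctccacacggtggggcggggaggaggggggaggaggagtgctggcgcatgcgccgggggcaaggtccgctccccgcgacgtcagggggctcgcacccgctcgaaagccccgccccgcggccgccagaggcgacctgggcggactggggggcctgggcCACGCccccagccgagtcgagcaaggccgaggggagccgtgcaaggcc
TBK1: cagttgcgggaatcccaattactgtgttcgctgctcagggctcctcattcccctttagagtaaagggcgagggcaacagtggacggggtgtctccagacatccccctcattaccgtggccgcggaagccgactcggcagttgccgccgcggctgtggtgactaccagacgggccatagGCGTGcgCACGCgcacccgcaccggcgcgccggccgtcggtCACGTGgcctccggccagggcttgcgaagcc
TTGGCGG was found at positions -41 to -35 of MYBL2, counted from the start, and at 3.51% of 27305 RefSeq promoters of 300 bases, and this motif was chosen after the sequence was read. The hypoxia core letters stood in all 3 windows, as in 48.4% of the promoters. Other E2F letters (TTTCCCGC, TTTCGCGC, TTTGCCGC and TTTGGCGC, found in 3.33%) and the CHR letters TTTGAA and TTCGAA (16.6%) did not occur in these 3 promoters. TBK1 alone of the 3 had the NF-Y letters CCAAT, which 35.7% of promoters hold. ACGTG on the plus and on the minus strand overlap where the letters read CACGTG. A match is a string of letters and not a bound site.

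The partners of MYBL2 were mixed. Of 14 tested genes of the MYB family, the MuvB core and its DREAM partners, MYBL2 included, 7 were lower and 3 were higher. Among all tested genes 32.6% were higher and 31.9% lower. The median log2 fold change of the 14 was -0.19. Their lower count was 5 with DESeq2 and 5 with libraries thinned to the shallowest. The higher count was 1 without either control or without 786-O-VHL replicate 2, and 1 with DESeq2. FOXM1, which follows MYBL2 onto MuvB, fell from 195 and 195 CPM to 79.7 and 84.0 CPM (log2 -1.24, edgeR FDR = 3.25e-15). The pocket protein gene RBL1 and the E2F partner TFDP1 fell by log2 fold changes of -1.41 and -1.16. Their relatives RBL2 and TFDP2 had 0.17 and 0.21 (edgeR FDR = 0.0619 and 0.0266). E2F5 rose by 0.92 (edgeR FDR = 7.23e-08), and E2F4 fell by -0.20 (edgeR FDR = 0.0339). MYBL1, the related A-MYB gene, was at 88.4 and 89.3 CPM in 786-O-Ctrl and at 90.9 and 108 CPM in 786-O-VHL, which gave a log2 fold change of 0.21 (edgeR FDR = 0.0113). Of the MuvB core genes, RBBP4 fell (log2 -0.32, edgeR FDR = 0.000148). LIN37, LIN52 and LIN54 did not pass the test, with values of 0.77, 0.13 and -0.17, and LIN9 had -0.53 (edgeR FDR = 0.00862) although its libraries overlapped.

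Late cell cycle genes that MYBL2-MuvB and FOXM1 activate were lower almost throughout. Of 23 tested, 22 were lower and 0 were higher at an edgeR FDR under 0.05, beside 31.9% lower and 32.6% higher among all tested genes. Their median log2 fold change was -0.75. The count was 21 or 22 under the 11 alternatives run for it, which included DESeq2. DESeq2 also called 0 higher. CDC25C was the exception with -0.23 (edgeR FDR = 0.156). The largest falls were those of KIF20A, CCNB1 and DLGAP5, with log2 fold changes of -1.38, -1.22 and -1.21. KIF20A encodes a kinesin of cytokinesis, CCNB1 the mitotic cyclin B1, and DLGAP5 a spindle assembly protein. The fall was small for TOP2A (log2 -0.28) and CKS2 (log2 -0.28). The list holds other genes that the study selected on these libraries. Fewer cycling cells and less RNA per cell cannot be told apart in these bulk samples.

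AURKA (ENSG00000087586.17) encodes aurora kinase A, which matures centrosomes, builds the mitotic spindle and promotes disassembly of the primary cilium. It lies on the minus strand of chromosome 20 from 54944445 to 54967393 and has no overlapping gene. AURKA mRNA was at 158 and 163 CPM in 786-O-Ctrl and at 70.9 and 75.8 CPM in 786-O-VHL, and the groups were well separated. The means were 160 ± 3.88 and 73.3 ± 3.45 CPM (SD). AURKA was 2.15-fold lower (log2 -1.11, standard error 0.0693, edgeR FDR = 5.47e-14), and the log2 fold change stayed between -1.18 and -0.97 over the alternatives. Its level and that of MYBL2 moved with the late cell cycle genes given above, and the part of cell cycle state in either was not tested.

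Of 15 genes that activate, accompany or remove aurora kinases, 12 were lower and 2 were higher, beside 32.6% higher and 31.9% lower among all tested genes. Their median log2 fold change was -0.53, and the lower count was between 10 and 12 over the 11 alternatives run for it. The higher count was 1 without the shallower control or without 786-O-VHL replicate 2, and 1 with DESeq2. The higher genes were AJUBA and AURKC, and AURKC had at most 1.13 CPM in any library. Of the lower genes, AURKB, PLK1, BIRC5 and CDCA8 were also counted among the late cell cycle genes above. TPX2, which activates AURKA on the spindle, fell from 362 and 375 CPM to 190.0 and 194 CPM, a log2 fold change of -0.94 (edgeR FDR = 3.15e-13). The activators BORA and CEP192 fell by -0.77 and -0.38, and TACC3, an AURKA substrate of the spindle, by -1.07. AURKB, the aurora kinase of the chromosomal passenger complex, had a log2 fold change of -0.53. Its partners INCENP, BIRC5 and CDCA8 had -1.16, -0.91 and -0.98. AJUBA, a LIM protein that can activate AURKA, went the other way. It was at 415 and 431 CPM in 786-O-Ctrl and at 846 and 957 CPM in 786-O-VHL, which gave a log2 fold change of 1.10 (edgeR FDR = 1.29e-14). HDAC6, a tubulin deacetylase that acts with AURKA at the cilium, had a log2 fold change of -0.24 (edgeR FDR = 0.0119), and the phosphatase gene PPP6C, which removes the activating mark of AURKA, had -0.02 (edgeR FDR = 0.833).

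**Figure D3:**
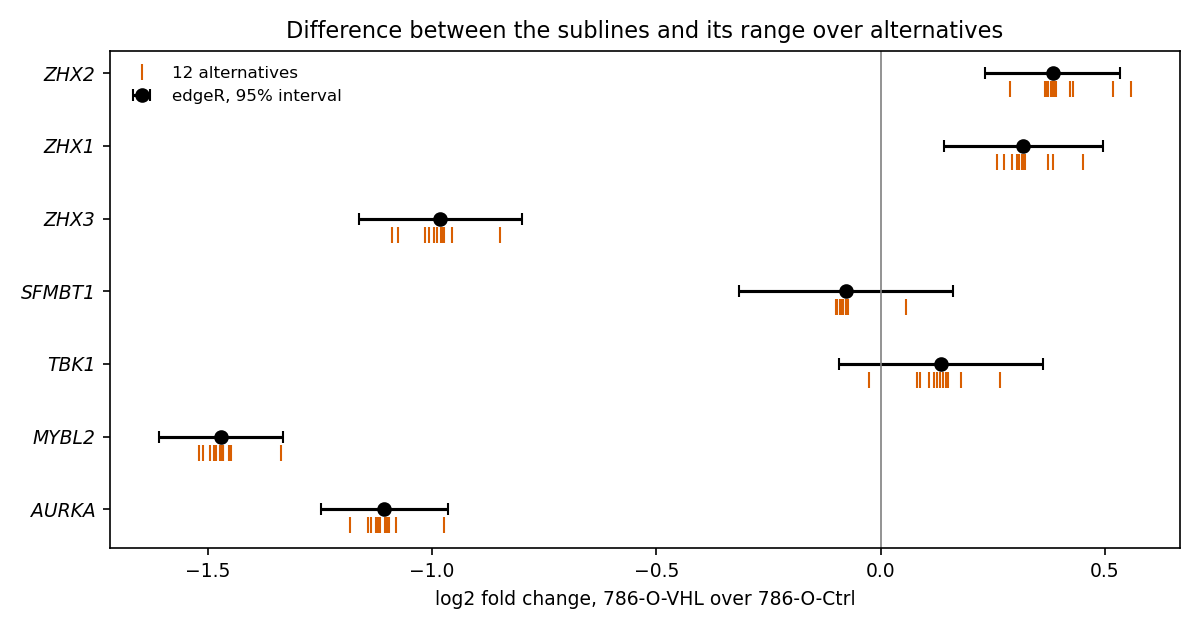
Log2 fold change of each gene, 786-O-VHL over 786-O-Ctrl, with its 95% interval from edgeR (black) and the values under 12 alternatives of the processing (orange ticks). The intervals of SFMBT1 and TBK1 include 0, and those of the other genes do not.

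**Figure D4:**
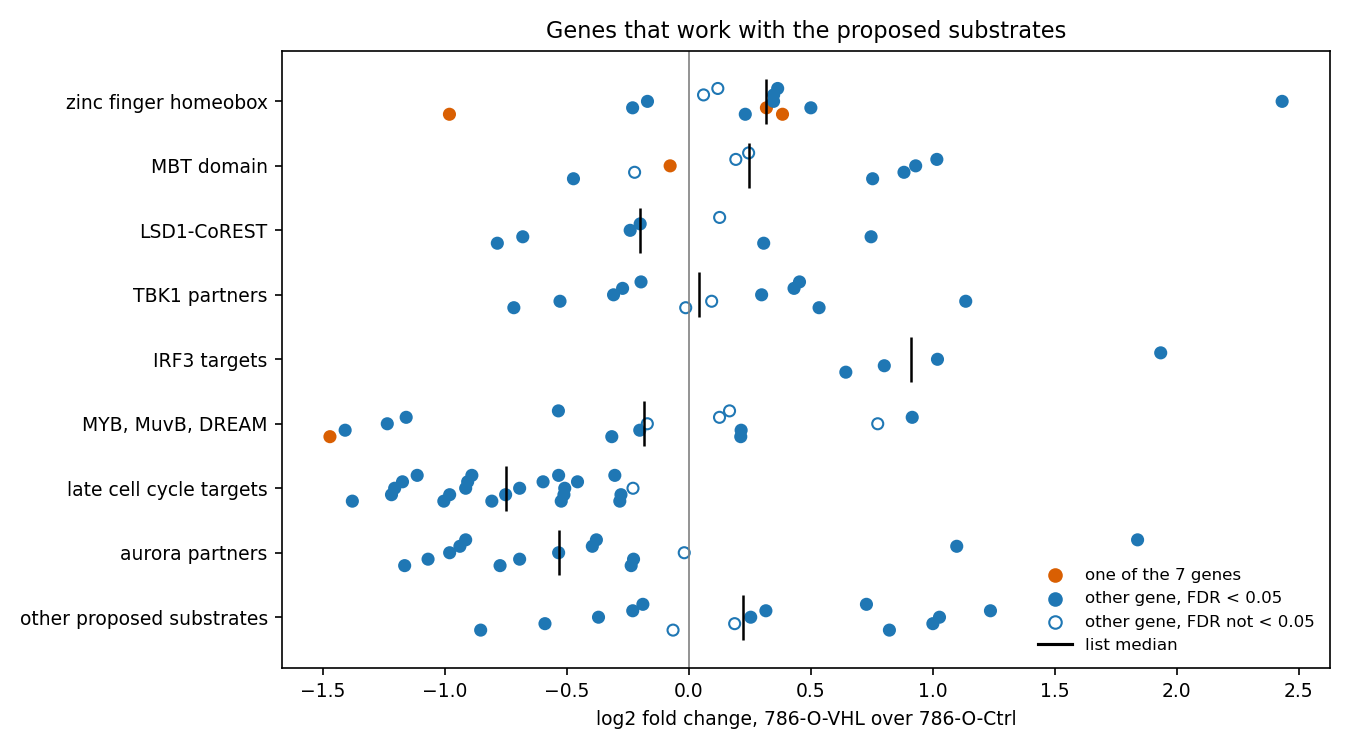
Log2 fold changes of the genes in 9 lists of relatives, partners and targets, one point per tested gene with small vertical offsets for visibility, and the list median as a black line. The late cell cycle targets lie below 0 in 23 of 23 genes, and the TBK1 partners spread to both sides.

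The 7 genes sit on 4 chromosomes, with ZHX3, MYBL2 and AURKA all on chromosome 20 and ZHX1 and ZHX2 both on chromosome 8. Over 336 tested genes of chromosome 20 the median log2 fold change was -0.06, with 36.9% lower and 28.9% higher at an FDR under 0.05, and over 408 genes of chromosome 8 it was 0.04, with 33.1% lower and 34.3% higher. Around each of the 7 genes, tested genes within 1 Mb were called in both directions. Within 1 Mb of MYBL2, 7 of 11 tested genes were higher and 1 was lower, with a median of 0.27. Among all tested genes 32.6% were higher and 31.9% lower, with a median of 0.02. The start of CSTF1, an RNA cleavage factor gene on the opposite strand, lies 34 bases from that of AURKA. CSTF1 was at 38.0 and 35.3 CPM in 786-O-Ctrl and at 38.3 and 49.3 CPM in 786-O-VHL, with log2 0.34 (SE 0.0973, edgeR FDR = 0.00320), opposite in sign to AURKA. ATAD2, an E2F-regulated chromatin ATPase gene 140.8 kb from ZHX1, fell by a log2 fold change of -1.26 (edgeR FDR = 1.73e-14), while ZHX1 and ZHX2 rose. LPIN3, a phosphatidate phosphatase gene 23.1 kb from ZHX3, had a log2 fold change of -0.90 (edgeR FDR = 7.15e-08) beside the -0.98 of ZHX3. Around SFMBT1, 10 of 27 tested genes were lower and 5 were higher, with a median of -0.17. Around TBK1, 5 of 9 were higher and 2 were lower, with a median of 0.45. Both counts are to be read against the same shares of all tested genes.

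**Figure D5:**
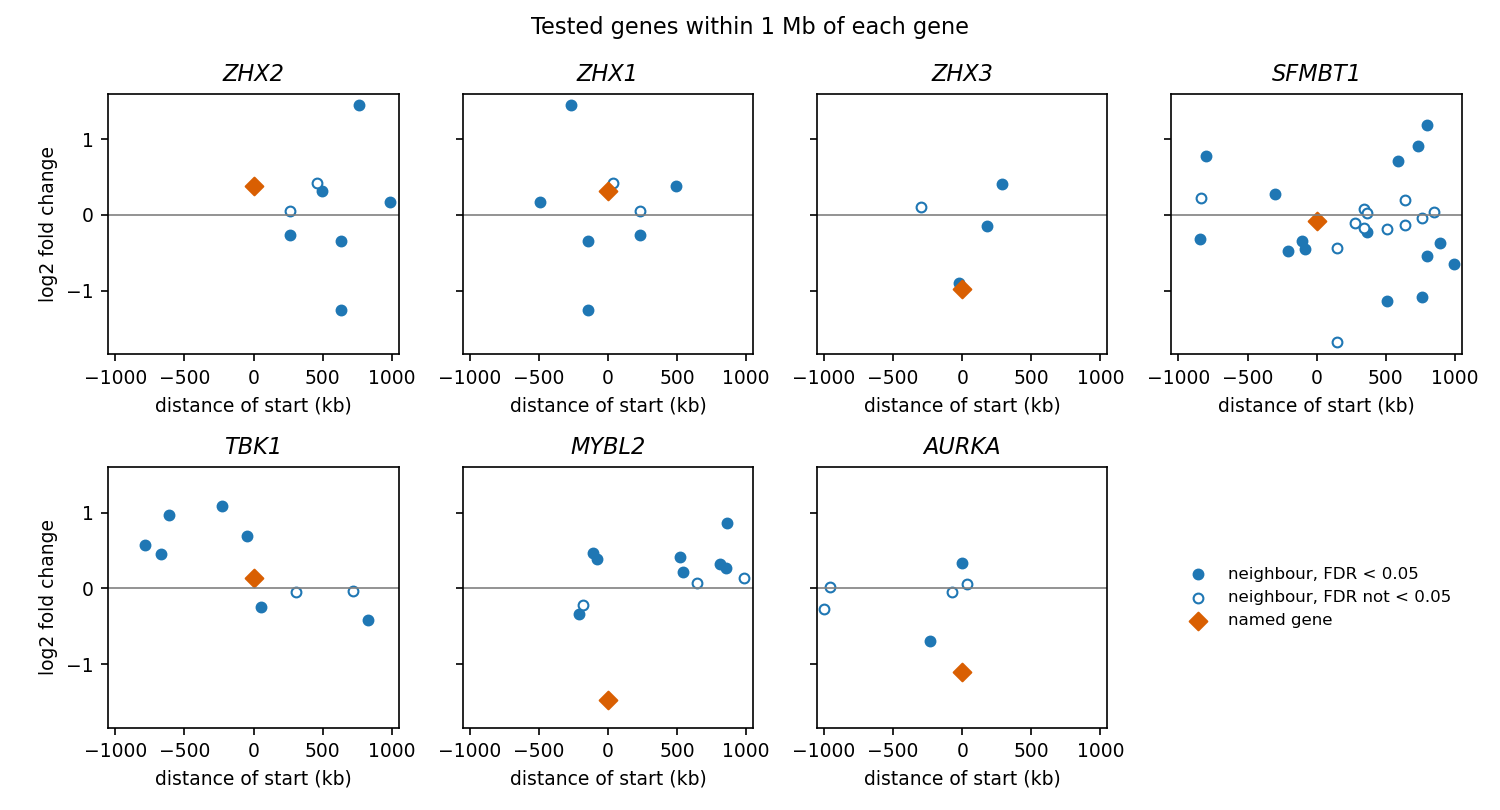
Log2 fold change of every tested gene whose start lies within 1 Mb of each of the 7 genes, against the distance of the starts in kb along the gene's own strand. The gene itself is the orange diamond, and the neighbors of MYBL2 and AURKA lie above it.

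A likeness of profile was measured over the 4 libraries as the root mean square distance of log2 CPM values centered on each gene's mean, among 9234 other tested genes with a mean of at least 10 CPM. The genes nearest to AURKA were RAD51AP1, LANCL2 and CTPS1, at distances between 0.0169 and 0.0209, and RAD51AP1 acts in recombination repair. Those nearest to MYBL2 were GPRIN1, SDC1 and TMEM97, at 0.0167 to 0.0223. ZHX3 had PKN3, GGCT and the centromere gene CENPF nearest to it, at 0.00431 to 0.0101. TRIM4, SEC63 and ASB8 were nearest to ZHX2 (0.00999 to 0.0179) and TMEM254, ZNF37A and PKN2 to ZHX1 (0.0118 to 0.0124). ITGB1, ARL6IP5 and SPPL3 were nearest to SFMBT1 (0.00286 to 0.00484) and RBM42, CASP8 and AP1AR to TBK1 (0.00904 to 0.0125). Profiles over 4 libraries are easily alike. Within a distance of 0.1 there were 102 genes for MYBL2, 223 for AURKA and 1770 for SFMBT1.

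Other proteins that have been proposed as VHL substrates or partners were examined in the same way. Of 14 tested, 7 were higher and 5 were lower at an FDR under 0.05, beside 32.6% higher and 31.9% lower among all tested genes, and their median log2 fold change was 0.22. The lower count was 3 without the deeper control and 3 with scaling by library totals. FN1, which encodes fibronectin, was at 7311 and 7063 CPM in 786-O-Ctrl and at 15503 and 13800 CPM in 786-O-VHL, which gave a log2 fold change of 1.03 (edgeR FDR = 2.32e-14). COL4A1 and COL4A2, collagen IV chains of basement membrane, rose by log2 fold changes of 1.00 and 0.82. The other higher genes were PRKCZ, SPRY2, PRKCI and POLR2G, with log2 fold changes of 1.24, 0.73, 0.32 and 0.25. The kinase genes AKT1 and AKT2 fell by -0.59 and -0.23, and NDRG3 by -0.85. TGFBI, a secreted matrix protein gene, had a log2 fold change of -0.19 (edgeR FDR = 0.00678), and NFKB2 had -0.37 (edgeR FDR = 3.32e-05). POLR2A, the large subunit of RNA polymerase II, did not pass the test at 0.19 (edgeR FDR = 0.199). Among the 8 genes of the VHL ligase and the HIF prolyl hydroxylases, 3 were lower and 2, VHL included, were higher, beside the same 31.9% and 32.6% of all tested genes. The higher count was 1 with DESeq2. The lower count was 2 with DESeq2 and 2 with scaling by library totals. The ligase subunit genes ELOB, ELOC and RBX1 had log2 fold changes of 0.21, -0.17 and -0.84 (edgeR FDR = 0.00601, 0.0272 and 8.29e-10), and the hydroxylase gene EGLN3 fell (log2 -4.36). CUL2, EGLN1 and EGLN2 did not pass the test, at -0.03, -0.06 and 0.45 (edgeR FDR = 0.714, 0.614 and 0.155).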

How the data were processed

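RNA was sequenced in 2 libraries for each of the groups 786-O-Ctrl and 786-O-VHL. Reads were aligned by the authors to hg19, and the labels' processing notes name CASAVA and STAR. They deposited raw counts per gene. The counter, annotation and strand setting were not given in the sources used here. Members and gene lists were chosen with earlier results of these data known.

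Genes were kept by filterByExpr (minimum count 10), which left 12335 of 12912. Counts were scaled by TMM and fitted with edgeR 4.0.16 in R 4.3.3, with group as the only term, by the quasi-likelihood test. FDR is the Benjamini-Hochberg adjusted p over all tested genes, and standard errors follow from the F statistic. Alternatives used DESeq2 1.42.0 (the tool of the study) and limma 3.58.1 among others. The scripts were tested on simulated counts. Replicates differed by more than sampling noise (chi-square per degree of freedom 2.26 between the controls and 2.82 between the VHL-restored libraries) and counted as 2 each. Coordinates and exon lengths come from a GENCODE 44 annotation of GRCh37, in which 12749 identifiers were found.

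Genes named are the 7, VHL, genes of the lists, the nearest neighbors (at most 3 per gene) and the 3 most similar profiles per gene. Lists are described by counts and medians without a set test. Listed genes not in the table were not analysed here. AC096887.1 was named after its values were seen.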

Additional observations from a re-analysis of the deposited data

How the results depend on the processing

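Under the 12 alternatives, MYBL2, AURKA and ZHX3 stayed lower and ZHX2 stayed higher past the FDR threshold, and the number of the 7 genes called lower was 3 under each of the 11 run for that count. The number called higher was 1 with DESeq2, 1 with libraries thinned to the shallowest, and between 1 and 2 with each library left out, because ZHX1 lost its call: its log2 fold change was 0.31 with DESeq2 (FDR = 0.0611) and 0.28 after thinning (FDR = 0.0974), and it lay between 0.26 and 0.38 with each library left out. With library totals alone the log2 fold change of SFMBT1 changed sign to 0.056 (FDR = 0.687) and TBK1 passed at 0.27 (FDR = 0.0366), where all genes shift upward by a median of 0.13. With each library left out TBK1 lay between -0.026, without 786-O-VHL replicate 2, and 0.18. A library left alone in its group is assumed to vary like the other group. The count of higher zinc finger homeobox genes was 8 in edgeR and lay between 4 and 9 over the same 11, and that of higher MBT domain genes was 4 and lay between 2 and 5. The alternatives for the late cell cycle and aurora lists were chosen after seeing the data. The 3 counts that a count of 0 allows amount to 1.02 CPM in 786-O-VHL replicate 1. No paired analysis was possible because both 786-O-Ctrl columns of the count table carry the same replicate number.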
